A study of Mus musculus with 59 samples.

Results

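The nuclear genes of respiratory complex I were followed across prefrontal cortex libraries of young mice that carried a Naa15 genotype and received fluoxetine, lithium or vehicle. The 47 genes were taken by symbol: every table gene whose name begins Nduf followed by a, b, c, s, v, ab or af and a number, with names ending in -ps left out, and with a value of at least 10 in at least 4 libraries. All 47 genes that matched by name passed this level filter, among 18088 genes in the table, of which 17891 were tested. The list holds 7 core subunits, 9 accessory subunits of the peripheral arm, 9 of the membrane arm near its heel, 10 of the B group in the distal membrane arm, the acyl carrier Ndufab1, 8 assembly factors, Ndufa4 with its paralogue Ndufa4l2, and Ndufb4c. The name does not describe 3 of them fully. Ndufa4 was first assigned to complex I and is now counted as a subunit of complex IV, Ndufa4l2 is its paralogue, and Ndufb4c carries the biotype of a processed pseudogene in the GENCODE annotation. The subunit gene annotated as Ndufb1-ps was left out by the naming rule.

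Complex I, or NADH:ubiquinone oxidoreductase, is the entry point of electrons from NADH into the respiratory chain of the inner mitochondrial membrane. Its peripheral arm passes electrons along a chain of iron-sulfur clusters to ubiquinone, and its membrane arm pumps protons. Most subunits are encoded in the nucleus, the mitochondrial genome supplies the hydrophobic pumping core, and dedicated assembly factors join the modules without staying in the finished enzyme. Neurons draw heavily on this chain for ATP, and inherited loss of complex I subunits or assembly factors is a known cause of Leigh syndrome in humans.

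The mice were of strain C57BL/6J, heterozygous (HT) or wild type (WT) for Naa15, the gene of the ribosome-anchoring partner in the N-terminal acetyltransferase NatA. Drugs reached the pups through the milk of the mother on postnatal days 3 to 24, a period of 3 weeks, and tissue was taken on day 25. There were 10 HT fluoxetine, 10 HT lithium, 10 WT fluoxetine, 10 WT lithium, 9 HT vehicle and 10 WT vehicle libraries. Each of these groups held 5 females and 5 males, apart from HT vehicle with 5 females and 4 males. The labels name the heterozygous genotype without its allele, and they name no litters or dams, so p-values measure the spread between these samples. Naa15 itself had 1510 to 1710 normalised counts in HT vehicle libraries (median 1599) and 1476 to 1971 in WT vehicle libraries (median 1612). That is a log2 difference of -0.03 ± 0.04 (SE; adjusted p = 0.895, limma), so its total transcript level gives no check of the genotype labels. Between HT and WT, Naa15 differed by -0.03 under lithium (adjusted p = 0.75) and by 0.12 under fluoxetine, higher in HT (adjusted p = 0.0149, limma). Against vehicle it was higher by 0.12 under lithium in each genotype (adjusted p = 0.0144 in HT and 0.0116 in WT, limma).

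Promoter and coding sequence of some genes are shown as a description, and a link of promoter sequence to the changes below was not tested. Shown first is the DNA before the start of a pair of genes that were higher under lithium in both genotypes, Ndufs5, an accessory subunit of the membrane arm, and Ndufaf4, an assembly factor of the quinone module. Both hold the core motif of NRF1, a transcription factor of nuclear genes for mitochondrial proteins, which is set in capitals. The windows are the 250 bases before the RefSeq start (GRCm38.p6), at chr4:123718187-123718436 on the minus strand for Ndufs5 and at chr4:24897833-24898082 on the plus strand for Ndufaf4. The motif begins 98 bases before the start of Ndufs5 and 113 bases before that of Ndufaf4.
Ndufs5: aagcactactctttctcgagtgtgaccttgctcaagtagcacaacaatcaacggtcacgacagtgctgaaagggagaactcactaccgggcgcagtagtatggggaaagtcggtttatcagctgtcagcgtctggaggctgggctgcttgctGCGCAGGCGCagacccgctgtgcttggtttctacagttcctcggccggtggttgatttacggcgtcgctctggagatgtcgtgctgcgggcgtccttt
Ndufaf4: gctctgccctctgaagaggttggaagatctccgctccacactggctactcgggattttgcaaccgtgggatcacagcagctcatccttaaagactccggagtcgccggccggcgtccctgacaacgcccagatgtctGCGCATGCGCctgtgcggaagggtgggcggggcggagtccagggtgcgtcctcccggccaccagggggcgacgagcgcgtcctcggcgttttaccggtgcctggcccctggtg

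Across the list, 40 of 47 genes matched a RefSeq promoter window of 250 bases before to 50 bases after the start, among 27025 genes with one. Searched on both strands, the NRF1 core (GCGCA, any base, then GCGC) lay in 9 of the 40 (22.5%), against 5.2% of all windows. The YY1 core AAGATGGCG lay in 6 (15%), against 1.6% of all windows, and the ETS core CCGGAAG in 6 (15%), against 9.9% of all windows. Among genes higher under lithium in both genotypes, 7 of 27 windows held the NRF1 core, 3 the YY1 core and 3 the ETS core. Among the 4 genes lower in both, none held the NRF1 or ETS core and 1, Ndufs7, held the YY1 core. A match of letters is a description and not a site of binding.

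Coding sequence is shown because the size of the changes below went with base composition, which was measured there over the whole transcript. The last 150 bases of the coding sequence of 4 genes are given from the GENCODE M21 annotation (GRCm38), with G and C in capitals: Ndufa4 and Ndufv2 were higher under lithium, Ndufs7 and Ndufb10 lower. The share of G and C in these stretches was 44.7% for Ndufa4, 49.3% for Ndufv2, 56.7% for Ndufs7 and 54.7% for Ndufb10. Over the whole transcript it was 44.1% for Ndufa4, 42.0% for Ndufv2, 60.7% for Ndufs7 and 55.5% for Ndufb10. These 4 genes are examples, and the share in the coding sequence did not separate the directions across the list. Over the whole coding sequence it was 58.7% for Ndufa2 and 58.8% for Ndufb2, which rose under lithium. Of genes that fell, Ndufa10 had 52.6% there and Ndufs7 61.5%. A relation of the changes to the share in the coding sequence was not tested.
Ndufa4: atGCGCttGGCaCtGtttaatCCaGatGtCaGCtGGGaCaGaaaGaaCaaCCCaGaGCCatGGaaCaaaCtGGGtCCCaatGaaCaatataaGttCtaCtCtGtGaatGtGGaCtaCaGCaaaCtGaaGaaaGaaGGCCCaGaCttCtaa
Ndufv2: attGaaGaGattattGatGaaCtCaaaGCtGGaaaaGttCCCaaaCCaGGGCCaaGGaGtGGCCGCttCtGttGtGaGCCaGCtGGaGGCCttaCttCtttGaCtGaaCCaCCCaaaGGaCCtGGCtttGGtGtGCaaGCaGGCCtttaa
Ndufs7: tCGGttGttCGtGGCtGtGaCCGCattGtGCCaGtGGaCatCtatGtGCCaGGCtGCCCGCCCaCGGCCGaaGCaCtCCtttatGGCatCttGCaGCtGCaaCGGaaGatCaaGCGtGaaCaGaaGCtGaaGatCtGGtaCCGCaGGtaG
Ndufb10: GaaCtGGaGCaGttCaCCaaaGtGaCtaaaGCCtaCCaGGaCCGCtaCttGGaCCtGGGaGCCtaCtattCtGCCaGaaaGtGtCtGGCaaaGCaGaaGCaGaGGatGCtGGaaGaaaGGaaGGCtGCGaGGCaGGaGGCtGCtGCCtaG

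The genes lie on many chromosomes in GRCm38. Ndufa4 is at chr6:11900292-11907497 on the minus strand, Ndufv2 at chr17:66078638-66101559 on the minus strand, Ndufs7 at chr10:80249121-80256794 on the plus strand and Ndufb10 at chr17:24722060-24724478 on the minus strand. Ndufc1, at chr3:51404677-51408988 on the minus strand, begins 6160 bases from the start of Naa15, at chr3:51415148-51476507 on the plus strand. Ndufb4c, at chr15:73809507-73809896 on the minus strand, is 390 bases long and identical to the coding sequence of Ndufb4 with 0 edits, so the counts of this pair are uncertain and may be shared between the copies.

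Levels are given as normalised counts, meaning estimated gene counts divided by a size factor for each library. Per kilobase of transcript, Ndufa4 averaged 7322 normalised counts over all 59 libraries, Ndufb9 4591 and Ndufb8 3911, the 3 highest of the list. The 3 lowest per kilobase were Ndufa4l2 at 70.2, the quinone-module assembly factor Ndufaf6 at 91.5 and Ndufaf4 at 209.9. Even Ndufa4l2 stayed between 38.5 and 108.4 normalised counts, and all 47 genes had a value of at least 10 in all 59 libraries. The transcripts of the list were short, with a median length of 908 bases against 2732.5 bases over all genes tested, and their median GC content was 52.1% against 50.03%.

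Recovered reads were 24.99 M to 32.87 M per library (median 29.11 M). A set of 25 libraries, all 20 with lithium and the 5 of HT females with fluoxetine, differed from the other 34 in the medians of several library measures, with ranges that overlapped. Reads from mitochondrial genes made up 6.76 to 10.3% of the total in these 25 libraries (median 7.98%) and 4.96 to 7.83% in the other 34 (median 5.84%). The slope of a gene's log2 deviation on GC content, per 10 percentage points, was -0.253 to -0.0369 in the 25 (median -0.151) and -0.0820 to 0.190 in the 34 (median 0.101). These ranges met through WT vehicle female replicate 1, at -0.0820, while HT fluoxetine female replicate 5 was at -0.0418. The slope per doubling of transcript length was -0.145 to 0.00285 (median -0.0418) and -0.0220 to 0.0786 (median 0.0323). The 47 genes made up 0.223 to 0.303% of reads in the 25 libraries (median 0.262%) and 0.202 to 0.256% in the 34 (median 0.232%). The labels record no batch, so a technical difference and the drugs cannot be told apart in these groups.

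The median over the 47 genes of the log2 deviation from each gene's mean shows where the libraries lie. It was -0.0375 to 0.264 in HT lithium libraries (median 0.108), 0.112 to 0.384 in WT lithium libraries (median 0.175) and 0.0369 to 0.209 in HT fluoxetine females (median 0.0985). It was -0.108 to 0.0155 in HT fluoxetine males (median -0.0326) and -0.234 to 0.0263 in WT fluoxetine libraries (median -0.0729). In HT vehicle libraries it was -0.211 to 0.0104 (median -0.118) and in WT vehicle libraries -0.271 to 0.0426 (median -0.132). All WT lithium libraries lay above all vehicle libraries, while 1 HT lithium library reached into the vehicle range.

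**Figure D1:**
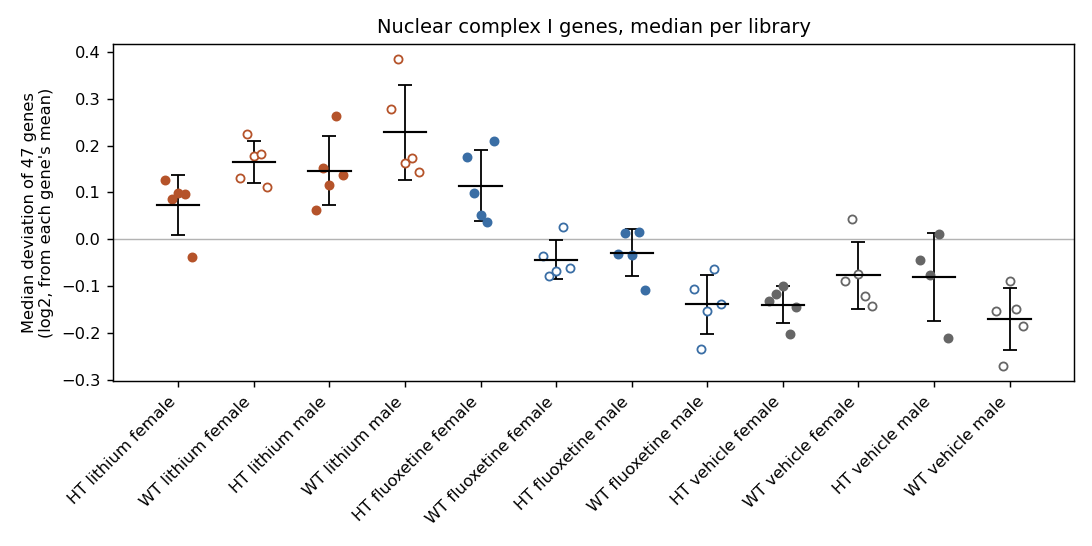
Median log2 deviation of the 47 complex I genes from their own means, 1 point per library, filled for HT and open for WT, with lines at the mean and bars of 1 SD for each of the 12 groups of drug, sex and genotype. Lithium libraries of both genotypes and HT fluoxetine females sit above most others, with HT lithium between -0.0375 and 0.264 and WT lithium between 0.112 and 0.384.

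Under lithium most complex I genes were higher than with vehicle, and a small group that included the quinone-site subunit Ndufs7 was lower. In WT cortex 37 of 47 genes rose and 5 fell at an adjusted p below 0.05 (limma), where 26.6% of all tested genes rose and 26.3% fell. In HT cortex 33 rose and 6 fell, where 25.7% of all tested genes rose and 24.9% fell. The median log2 difference over the list was 0.31 in WT and 0.23 in HT, beside 0.01 and 0.03 over all tested genes. In bulk tissue, fewer cells of a type and less RNA per cell cannot be told apart. In WT, all 10 lithium libraries lay above all 10 vehicle libraries for 24 of the 47 genes and below them for 0, where 6.22% of all tested genes lay wholly above and 5.87% wholly below. In HT, the lithium libraries lay above all vehicle libraries for 15 genes and below them for 1, where 5.53% of all tested genes lay wholly above and 7.8% wholly below. Across genotypes, 33 genes rose in both, 4 fell in both (Ndufa10, Ndufb10, Ndufs7 and Ndufv3), and 10 did neither.

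The core subunits, which carry the redox centres, were divided. Ndufv2, an iron-sulfur subunit of the NADH module, had 2461 to 2838 normalised counts in HT lithium libraries (median 2718), against 2113 to 2291 in HT vehicle libraries (median 2222). Its WT values were 2688 to 3197 with lithium (median 2856), against 2003 to 2358 with vehicle (median 2252). The lithium libraries lay above all vehicle libraries in both genotypes, and the log2 differences were 0.29 ± 0.03 in HT and 0.37 ± 0.03 in WT (SE; adjusted p = 2.05e-13 and 2.15e-17, limma). Ndufs1, the large iron-sulfur subunit, rose by 0.21 in HT and 0.25 in WT, and Ndufs3, which lies between the NADH and quinone modules, by 0.23 and 0.31.

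Ndufs7 holds the last iron-sulfur cluster before ubiquinone and went the other way. It had 821 to 1310 normalised counts in HT lithium libraries (median 1120), against 1332 to 1601 in HT vehicle libraries (median 1460). Its WT values were 981.3 to 1401 with lithium (median 1078), against 1172 to 1583 with vehicle (median 1458). All HT lithium libraries lay below all HT vehicle libraries, while the WT groups overlapped. The log2 differences were -0.41 ± 0.06 in HT and -0.33 ± 0.06 in WT (SE; adjusted p = 8.79e-08 and 2.58e-06, limma). Ndufv1, which binds NADH and FMN, had 2414 to 3681 normalised counts in HT lithium libraries (median 3178), against 3466 to 3873 in HT vehicle libraries (median 3554). It fell by 0.22 on the log2 scale in HT (adjusted p = 4.74e-04) and differed by -0.10 in WT (adjusted p = 0.101), with overlapping groups in both. Ndufs8, an iron-sulfur subunit next to Ndufs7, fell by 0.20 in HT (adjusted p = 0.00133) and differed by -0.10 in WT (adjusted p = 0.0891). With the GC trend alone removed it differed by 0.002 in HT (adjusted p = 0.98). Whether these genes differed between genotypes in their response was tested by the interaction below.

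Of the 9 accessory subunits of the peripheral arm, 6 rose and 1 fell in HT, and 7 rose and 1 fell in WT. Ndufa2, a small subunit with a thioredoxin-like fold, had 966.9 to 1419 normalised counts in HT lithium libraries (median 1139), against 664.5 to 1090 in HT vehicle libraries (median 829.7). In WT it had 1042 to 1453 with lithium (median 1208), against 617 to 950.6 with vehicle (median 796.9). The WT groups did not overlap and the HT groups did, and the log2 differences were 0.49 ± 0.07 in HT and 0.65 ± 0.07 in WT (SE; adjusted p = 4.69e-08 and 8.38e-12, limma). Ndufs4, a subunit whose loss gives a widely used mouse model of Leigh syndrome, rose by 0.27 in HT and 0.38 in WT. Ndufv3, a small subunit of the NADH module, fell by 0.19 in HT and by 0.16 in WT.

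Near the heel of the membrane arm 6 of 9 genes rose and 1 fell in HT, and 7 rose and 1 fell in WT. Ndufc1 had 608.9 to 767.8 normalised counts in HT lithium libraries (median 717.5), against 447.9 to 608.8 in HT vehicle libraries (median 535.8). In WT it had 707.2 to 841.9 with lithium (median 737.3), against 454.3 to 658.1 with vehicle (median 537.5). Neither pair of groups overlapped, and the log2 differences were 0.39 ± 0.05 in HT and 0.48 ± 0.05 in WT (SE; adjusted p = 2.68e-08 and 5.23e-11, limma). Ndufa3 rose by 0.38 in HT and 0.50 in WT, Ndufc2 by 0.39 and 0.45, and Ndufa13, also known as GRIM-19, by 0.24 and 0.39. Ndufa10, an accessory subunit related to nucleoside kinases, fell by 0.22 in HT and by 0.17 in WT.

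In the B group of the distal membrane arm 7 of 10 genes rose and 1 fell in HT, and 8 rose and 1 fell in WT. Ndufb2 rose by 0.41 in HT and 0.45 in WT, and Ndufb4 by 0.38 and 0.47, each with no overlap between lithium and vehicle libraries in either genotype. Ndufb4c, with the same coding sequence as Ndufb4, rose by 0.32 and 0.39. Ndufb10 was the exception of this group. It had 1530 to 2202 normalised counts in HT lithium libraries (median 1858), against 2183 to 2573 in HT vehicle libraries (median 2288). In WT it had 1686 to 2256 with lithium (median 1803), against 1919 to 2491 with vehicle (median 2275). The groups overlapped in both genotypes, and the log2 differences were -0.35 ± 0.05 in HT and -0.25 ± 0.05 in WT (SE; adjusted p = 5.33e-08 and 1.28e-05, limma).

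Assembly factors were higher almost throughout: 7 of 8 rose and none fell in HT, and all 8 rose in WT. Ndufaf2, a paralogue of the subunit Ndufa12 that acts late in assembly, had 268.0 to 328.5 normalised counts in HT lithium libraries (median 296.4), against 214.5 to 267.8 in HT vehicle libraries (median 243.1). The WT values were 285.4 to 382.5 with lithium (median 326.7), against 202.7 to 268.5 with vehicle (median 233.2). The groups did not overlap in either genotype, and the log2 differences were 0.31 ± 0.05 in HT and 0.49 ± 0.05 in WT (SE; adjusted p = 2.02e-06 and 1.09e-11, limma). Ndufaf4, whose promoter window is printed above, rose by 0.33 in HT and 0.39 in WT, and its partner in quinone-module assembly, Ndufaf3, by 0.23 and 0.29. Ndufaf6, of the same module, rose by 0.26 and 0.50. Ndufaf5, which in human cells hydroxylates the Ndufs7 protein, rose by 0.19 and 0.30, and Ndufaf7, a methyltransferase that acts in complex I assembly, by 0.17 and 0.21. Ndufaf1, a chaperone of membrane-arm assembly, rose by 0.13 and 0.19. Ndufaf8, a partner of Ndufaf5, rose by 0.29 in WT and differed by 0.11 in HT (adjusted p = 0.327).

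Ndufa4 showed the smallest p-value of the list in WT. It had 4640 to 5503 normalised counts in HT lithium libraries (median 5087), against 3527 to 4057 in HT vehicle libraries (median 3847). The WT values were 5142 to 6096 with lithium (median 5512), against 3316 to 4185 with vehicle (median 3825). The groups were apart in both genotypes, and the log2 differences were 0.42 ± 0.03 in HT and 0.54 ± 0.03 in WT (SE; adjusted p = 2.75e-16 and 1.64e-20, limma). Ndufa4l2, the lowest of the list per kilobase, fell by 0.35 in WT (adjusted p = 0.0291) and differed by -0.27 in HT (adjusted p = 0.113). The acyl carrier Ndufab1, which complex I shares with mitochondrial fatty acid synthesis, rose by 0.18 in HT and 0.21 in WT.

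**Figure D2:**
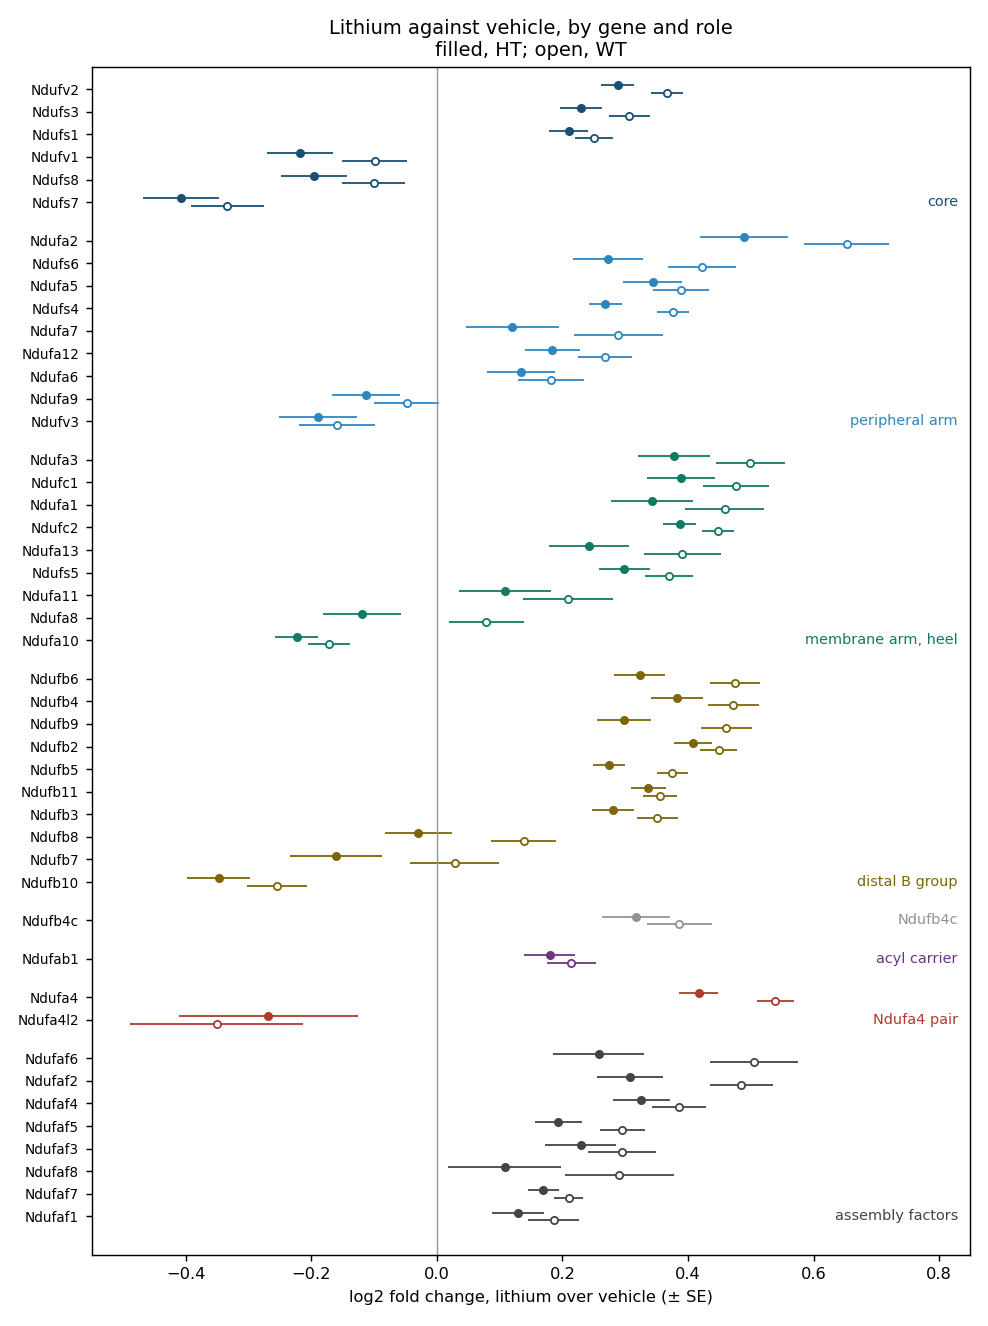
Log2 difference between lithium and vehicle, 1 line for each complex I gene shown, in groups by role, with HT as filled points, WT as open points and bars of 1 SE. Most genes lie right of 0 in both genotypes, while Ndufs7 (-0.41 in HT, -0.33 in WT) and Ndufb10 (-0.35 in HT, -0.25 in WT) lie left of it.

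**Figure D3:**
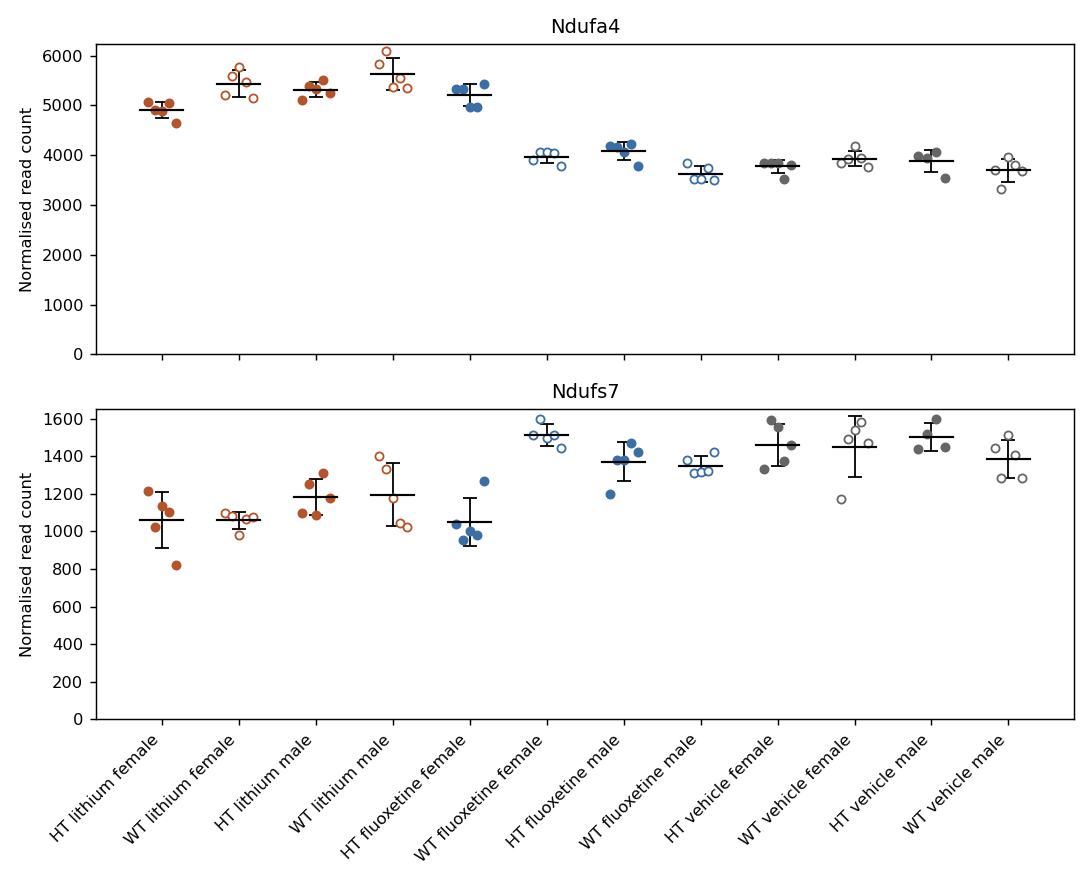
Normalised counts of Ndufa4 (top) and Ndufs7 (bottom) in every library by drug, sex and genotype, filled for HT and open for WT, with lines at the mean and bars of 1 SD. Ndufa4 lies at 4640 to 5503 in HT lithium libraries and 3527 to 4057 in HT vehicle libraries, and Ndufs7 at 821 to 1310 in HT lithium libraries and 1332 to 1601 in HT vehicle libraries.

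The difference under lithium went with base composition and length across the list. Spearman's rho between a gene's log2 difference and the GC content of its transcript was -0.53 over the 47 genes in HT and -0.45 in WT, and over 17880 genes it was -0.58 in HT and -0.49 in WT. With transcript length it was -0.31 in HT and -0.34 in WT over the list, and -0.22 and -0.31 over all genes. The points share the same libraries, so these values are descriptions. The 33 genes that rose in both genotypes had a median GC content of 50%, the 4 that fell in both had 55.7% and the other 10 had 56.1%.

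When a smooth trend on GC content and length was removed from each library, the count of called genes became smaller in both genotypes. In WT 25 genes rose and 4 fell, where 17.4% of all genes rose and 16.3% fell, and the list median was 0.11. In HT 15 rose and 9 fell, where 11.7% of all genes rose and 16.4% fell, and the list median was 0.01. Ndufs7 fell by 0.34 in HT and by 0.32 in WT after the removal, and Ndufb10 by 0.41 and 0.36. Ndufa4 differed by -0.03 in HT (adjusted p = 0.536) and rose by 0.09 in WT (adjusted p = 0.013). Ndufa13 rose by 0.41 in HT and 0.51 in WT, a larger difference than before the removal, and it has a GC content of 60.4%. Ndufaf3 rose by 0.32 and 0.35, Ndufs3 by 0.19 and 0.23, and Ndufs5 by 0.08 and 0.14. Of the other assembly factors, Ndufaf4 differed by 0.08 in HT (adjusted p = 0.177) and rose by 0.19 in WT, and Ndufaf2 differed by -0.02 in HT (adjusted p = 0.83) and rose by 0.15 in WT.

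**Figure D4:**
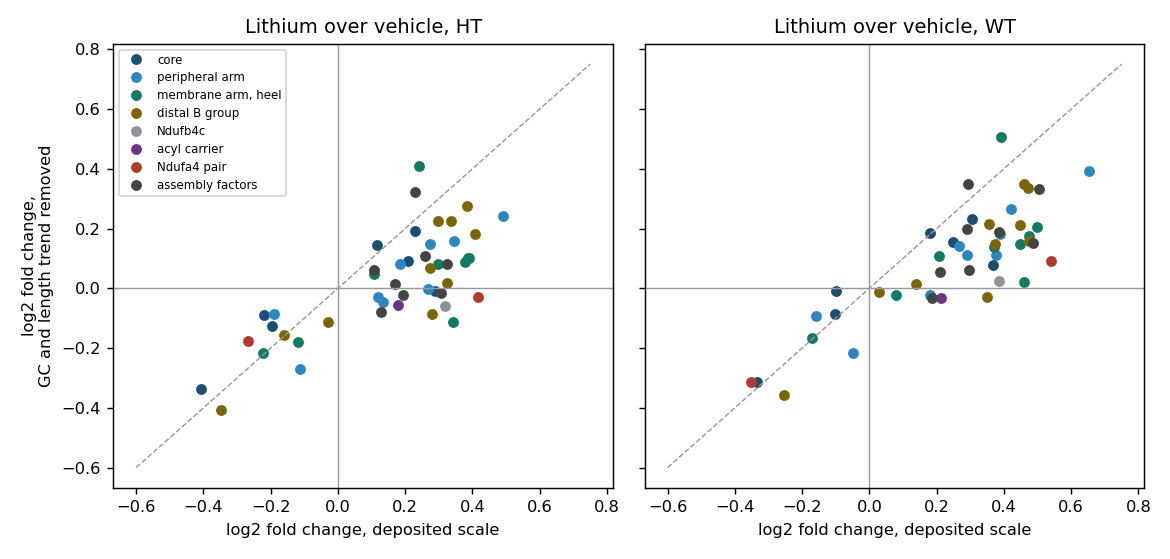
Log2 difference between lithium and vehicle with the GC and length trend removed (vertical) against the value on the deposited scale (horizontal) for the 47 genes, coloured by role, HT on the left and WT on the right, with a dashed line where both are equal. Most of the genes right of 0 lie below that line; Ndufa4 is at -0.03 in HT and 0.09 in WT after the removal, and Ndufs7 at -0.34 in HT and -0.32 in WT.

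The rest of the respiratory chain and the markers of cell types give the surroundings of this pattern. The shares of all tested genes to read these counts against are 25.7% that rose and 24.9% that fell in HT, and 26.6% and 26.3% in WT. Of the 7 mitochondrially encoded complex I subunits, 5 rose and none fell under lithium in each genotype, with mt-Nd1 higher by 0.46 in HT and 0.59 in WT and mt-Nd2 by 0.43 and 0.56. Of 13 complex I assembly factors with other names, 9 rose and 2 fell in each genotype. Among them Tmem70 rose by 0.27 in HT and 0.37 in WT, and Ecsit, a partner of Ndufaf1, fell by 0.30 in HT and by 0.23 in WT. Of 40 nuclear genes of complexes III to V, 29 rose and 4 fell in HT (median 0.24), and 30 rose and 2 fell in WT (median 0.34). Of 4 complex II genes, 3 rose and 1 fell in HT, and 3 rose in WT. Among the cytosolic ribosomal proteins, 94 genes in all, the counts were 60 up and 13 down in HT (median 0.21) and 69 up and 8 down in WT (median 0.29). Of 78 mitochondrial ribosomal proteins, 53 rose and 9 fell in HT and 63 rose and 2 fell in WT. Of 11 regulators of mitochondrial genes, 4 rose and 5 fell in HT and 4 rose and 4 fell in WT. Nrf1 itself differed by -0.04 in HT and -0.05 in WT and was not called, and Pprc1, a coactivator of the PGC-1 family, fell by 0.50 and 0.52.

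The list of cortical excitatory neuron markers held 6 genes, among them Slc17a7 and Neurod6, and all were tested. Their summed level was 49830 to 65880 in HT lithium libraries (median 60270), against 61560 to 76320 in HT vehicle libraries (median 73010). It was 56360 to 66980 in WT lithium libraries (median 60930), against 55710 to 76150 in WT vehicle libraries (median 72460). In HT 5 of the 6 fell and none rose, and in WT 5 fell and 1 rose. The 5 microglial markers summed to 5381 to 7949 in HT lithium libraries (median 6046), against 6700 to 8937 in HT vehicle libraries (median 7317). In WT they summed to 5596 to 7556 with lithium (median 6300), against 6068 to 8519 with vehicle (median 7326), and 2 fell and 1 rose in each genotype. The 4 meningeal fibroblast markers summed to 1346 to 2332 in HT lithium libraries (median 1639), against 1900 to 3103 in HT vehicle libraries (median 2560). In WT they summed to 1390 to 2603 with lithium (median 1848), against 1555 to 3072 with vehicle (median 2531), with 2 that fell in each genotype and 1 that rose in WT. These ranges overlapped. Endothelial markers fell for 3 of 4 genes in each genotype and mural cell markers for 2 of 3. Summed astrocyte, interneuron and oligodendrocyte markers had medians of 32820, 20970 and 100900 in HT lithium libraries, against 32000, 21530 and 126800 in HT vehicle libraries. In WT the medians were 32840, 20390 and 112200 with lithium, against 33450, 21190 and 94480 with vehicle. The ranges overlapped in both genotypes. The part of the marker shifts in the complex I result was not tested.

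Fluoxetine in WT cortex gave no called complex I gene (0 of 47, where 1.02% of all tested genes were called in either direction by limma), with 4 genes at an unadjusted p below 0.05. Of all 17891 tested genes 1992 were below it. edgeR and DESeq2 on the recovered reads also called 0, with 4 and 3 genes at an unadjusted p below 0.05. The smallest p-values belonged to Ndufab1 with a log2 difference of 0.12 (adjusted p = 0.123), Ndufa8 with 0.15 (adjusted p = 0.279) and Ndufaf8 with 0.20 (adjusted p = 0.328). The list median was 0.03.

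In HT cortex the fluoxetine comparison gave different results in females and in males. Sex and the library difference of the HT fluoxetine females cannot be told apart here. In HT females 32 of 47 genes rose and 7 fell, where 18.9% of all tested genes rose and 19.5% fell, and the list median was 0.27. The HT fluoxetine females are the 5 libraries counted above with the lithium libraries for their GC slope and mitochondrial share. In 29 genes all 5 fluoxetine females lay above all 5 vehicle females, and in 3 genes (Ndufs7, Ndufb10 and Ndufv1) all lay below, where 12.4% of all tested genes lay wholly above and 14.3% wholly below. By role, 3 core subunits rose and 2 fell, as did 6 and 1 accessory subunits of the peripheral arm, 6 and 2 near the heel and 7 and 2 of the B group, while 7 assembly factors rose and none fell.

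Ndufa4 had 5340, 5340, 4961, 4970 and 5424 normalised counts in HT fluoxetine females, against 3847, 3849, 3839, 3527 and 3814 in HT vehicle females. Every treated female was above every vehicle female, with a log2 difference of 0.46 ± 0.04 (SE; adjusted p = 1.45e-12, limma). Ndufaf2 had 366.6, 322.4, 333.2, 302.0 and 330.3 in HT fluoxetine females, against 237.3, 257.4, 245.0, 215.3 and 216.5 in HT vehicle females. These groups did not overlap either, and the log2 difference was 0.50 ± 0.07 (SE; adjusted p = 1.51e-07, limma). Ndufb4c rose by 0.48, Ndufa2 by 0.47, Ndufb2 by 0.47 and Ndufa3 by 0.45.

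Ndufs7 had 1040, 953.4, 1005, 982.6 and 1270 normalised counts in HT fluoxetine females, against 1332, 1591, 1556, 1375 and 1460 in HT vehicle females. The highest treated female was still below the lowest vehicle female, and the log2 difference was -0.48 ± 0.08 (SE; adjusted p = 3.84e-06, limma). Ndufb10 had 1974, 1717, 1771, 1757 and 2177 in HT fluoxetine females, against 2183, 2489, 2288, 2196 and 2272 in HT vehicle females. These ranges only just failed to meet, at a log2 difference of -0.29 ± 0.07 (SE; adjusted p = 6.26e-04, limma). Ndufv1 fell by 0.29, Ndufv3 by 0.27, Ndufb7 by 0.25 and Ndufa8 by 0.23. Over the list, Spearman's rho of the difference with GC content was -0.49 and with length -0.39. After removal of the GC and length trend 11 genes rose and 5 fell, where 6.36% of all genes rose and 6.9% fell, and the list median was 0.07. Ndufa13 then rose by 0.47 and Ndufs7 fell by 0.43, while Ndufa4 differed by -0.007 (adjusted p = 0.946).

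Markers of cell types also differed between these groups. The summed level of the 6 excitatory neuron markers was 58120 to 62120 in HT fluoxetine females (median 61490), against 64900 to 76320 in HT vehicle females (median 69970), with 3 of the 6 lower and 1 higher. That of the 5 microglial markers was 5889 to 6247 in HT fluoxetine females (median 6124), against 6700 to 8937 in HT vehicle females (median 7123), with 2 lower and none higher. Neither pair of ranges overlapped. Of 4 endothelial markers 2 were lower, and of 3 mural cell markers 2 were lower, with none higher in either list. Their sums overlapped between HT fluoxetine females and HT vehicle females. They were 4293 to 4676 against 4347 to 5836 for endothelial and 4140 to 5143 against 4658 to 6157 for mural cell markers. The share of all tested genes to read these counts against is 19.5% lower and 18.9% higher. Summed astrocyte, interneuron and oligodendrocyte markers overlapped between the groups. Their medians were 31490, 21040 and 130000 in HT fluoxetine females, against 30600, 21530 and 138100 in HT vehicle females. The part of the marker shifts in the complex I result was not tested.

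**Figure D5:**
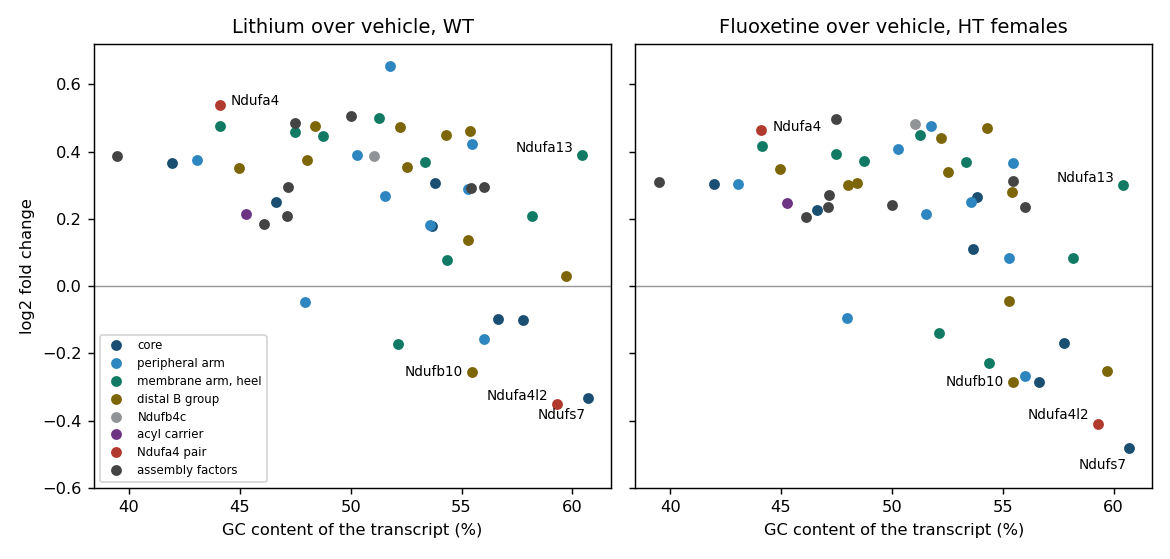
Log2 difference from vehicle against the GC content of the transcript in percent for the 47 genes, coloured by role, for lithium in WT on the left and for fluoxetine in HT females on the right. Genes of higher GC content tend to lie lower, with Spearman's rho of -0.45 for lithium in WT and -0.49 for fluoxetine in HT females, and Ndufa13 at a GC content of 60.4% lies above 0 in both panels.

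In HT males no complex I gene was called for fluoxetine against vehicle (0 of 47, where 0.162% of all tested genes were called in either direction by limma). At an unadjusted p below 0.05 there were 9 genes, against 1544 of all 17891 tested genes (limma). edgeR called 0 with 9 such genes, and DESeq2 called 1 with 8, without the shares of all genes under these tools. Ndufaf6 had 107.4, 115.7, 107.6, 117.9 and 116.0 normalised counts in HT fluoxetine males, against 83.32, 72.91, 94.66 and 82.01 in HT vehicle males. The groups did not overlap, with a log2 difference of 0.44 and an adjusted p of 0.0579 (limma), and the share of all genes with groups apart is not reported here. Ndufb2 differed by 0.19 (adjusted p = 0.0579) and Ndufab1 by 0.22 (adjusted p = 0.119). Ndufs7 had 1199, 1379, 1380, 1473 and 1425 in HT fluoxetine males, against 1438, 1517, 1601 and 1450 in HT vehicle males, which overlapped.

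The difference between the sexes in the HT response was tested directly. The female response was above the male response for 21 genes and below it for 2, where 6.59% of all tested genes were called above and 8.59% below, with a list median of 0.22. Ndufa4 differed from vehicle by 0.46 in females and 0.07 in males, a difference of 0.39 ± 0.06 (SE; adjusted p = 1.37e-05, limma). Ndufa3 differed by 0.45 in females and -0.01 in males, a difference of 0.46 ± 0.11 (adjusted p = 0.00395). Ndufs7 differed by -0.48 in females and -0.13 in males, a difference of -0.35 ± 0.12 (adjusted p = 0.0385). With the GC and length trend removed 2 genes were called above and 1 below, where 0.274% and 0.52% of all genes were, and the difference for Ndufa4 was -0.049 (adjusted p = 0.817). The count before the removal was 14 without HT vehicle male replicate 1 and 15 without HT fluoxetine male replicate 5.

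With both sexes together, HT fluoxetine against HT vehicle gave 30 genes that rose and 4 that fell, where 14.8% of all tested genes rose and 16.3% fell. Ndufaf6 rose by 0.34, Ndufaf2, Ndufb2 and Ndufb4c by 0.33 each, Ndufa2 by 0.31 and Ndufb4 by 0.30, and Ndufa4l2 fell by 0.47, Ndufs7 by 0.31, Ndufv1 by 0.19 and Ndufb10 by 0.15. Without the HT fluoxetine females, with males on both sides, limma called 0, with 8 genes at an unadjusted p below 0.05. After removal of the GC and length trend 14 rose and 3 fell, where 4.8% of all genes rose and 5.03% fell. The genotype difference in the fluoxetine response was positive for 20 genes and negative for 5, where 8.97% and 11.7% of all tested genes were called. Ndufa4 differed from vehicle by 0.27 in HT and -0.01 in WT, a difference of 0.27 ± 0.04 (SE; adjusted p = 7.46e-06, limma). Ndufs7 differed by -0.31 in HT and 0.02 in WT, a difference of -0.32 ± 0.08 (adjusted p = 0.0037). With the trend removed the counts were 3 and 1, where 0.548% and 0.856% of all genes were called. Among males alone none of the 47 genes was called (0% of all tested genes, limma), with 1 gene, Ndufs1, at an unadjusted p below 0.05 (log2 difference 0.13, adjusted p = 0.853). Of all 17891 tested genes 1016 were below it. edgeR and DESeq2 also called 0, with 1 such gene each. Next came Ndufb2 with 0.11 and Ndufb5 with 0.09 (adjusted p = 0.855 each).

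Genotype alone made no called difference in the complex I genes of vehicle mice (0 of 47, where 0.106% of all tested genes were called in either direction by limma). At an unadjusted p below 0.05 there were 2 genes, against 1413 of all 17891 tested genes (limma). edgeR and DESeq2 called 0 with 2 such genes each. The smallest p-values belonged to Ndufb7 with a log2 difference of 0.16 (adjusted p = 0.565), Ndufv1 with 0.12 (adjusted p = 0.592) and Ndufa5, a subunit of the peripheral arm, with -0.08 (adjusted p = 0.706). Ndufc1, the neighbour of Naa15, had 447.9 to 608.8 normalised counts in HT vehicle libraries (median 535.8), against 454.3 to 658.1 in WT vehicle libraries (median 537.5), with a log2 difference of -0.01 (adjusted p = 0.984). The list deviation had genotype medians in opposite order in males and females, which was not tested. With vehicle its median was -0.0607 in HT and -0.153 in WT males, and -0.132 in HT and -0.0892 in WT females, with overlapping ranges.

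Under lithium, too, no gene was called between HT and WT (0 of 47, where 0.386% of all tested genes were called in either direction by limma). At an unadjusted p below 0.05 there were 14 of the 47 genes, against 2509 of all 17891 tested genes (limma). Of the 47 log2 differences 1, that of Ndufa4l2 at 0.04, was above 0, against 8619 of all 17891. The list median was -0.08. edgeR called 3 genes, all lower, and DESeq2 4, all lower, with 18 and 14 genes at an unadjusted p below 0.05. Shares of all genes under these tools are not reported here. Ndufb5, of the B group, had 1927 to 2160 normalised counts in HT lithium libraries (median 2018), against 2038 to 2424 in WT lithium libraries (median 2181). The groups overlapped, at a log2 difference of -0.10 ± 0.03 (SE; adjusted p = 0.0525, limma). Ndufs4 differed by -0.10 (adjusted p = 0.0577) and Ndufa4 by -0.12 (adjusted p = 0.06). The genotype difference in the lithium response itself was called for none of the 47 genes (0% of all tested genes, limma), with 10 at an unadjusted p below 0.05. Of all 17891 tested genes 1058 were below it. edgeR and DESeq2 also called 0, with 11 and 10 such genes. Ndufs4, Ndufa4 and Ndufb5 had differences of -0.11, -0.12 and -0.10 in this interaction, each with an adjusted p of 0.832.

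Under fluoxetine HT and WT differed. Over both sexes 27 genes were higher and 7 lower in HT, where 15.6% of all tested genes were higher and 17.8% lower, with a list median of 0.14. The difference was 0.37 for Ndufb4c, 0.34 for Ndufa2, 0.31 for Ndufaf6, 0.29 for Ndufb4, 0.28 for Ndufa4 and 0.28 for Ndufb2. It was -0.45 for Ndufa4l2, -0.26 for Ndufs7, -0.19 for Ndufa8, -0.17 for Ndufv3, -0.13 for Ndufs8 and -0.12 for Ndufb10. All HT fluoxetine libraries lay above all WT fluoxetine libraries for Ndufaf6, and the share of all genes so placed is not reported here. After removal of the GC and length trend 11 were higher and 4 lower, where 4.94% and 6.89% of all genes were. Without the HT fluoxetine females, so that males stood on both sides, 6 genes were higher and none lower. Ndufb10 then differed by 0.145, Ndufs7 by 0.018 and Ndufv3 by 0.005, none of them called, and with the GC trend alone removed from all libraries Ndufs8 differed by 0.006.

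In males, which belong to the 34 libraries, 6 genes were higher in HT and none lower. Of all tested genes 0.805% were higher in HT males and 0.799% lower, and the list median was 0.11. With fluoxetine the list deviation had a median of -0.0326 in HT males and -0.138 in WT males. With vehicle it was -0.0607 in HT males and -0.153 in WT males, and genotype was not tested in vehicle males alone. Each pair of ranges overlapped. The genotype difference in the fluoxetine response among males, given above, had a list median of 0.017 with 0 genes called. Ndufb4c had 867.4, 977.2, 880.3, 940.1 and 824.7 normalised counts in HT fluoxetine males, against 774.6, 623.7, 745.5, 659.5 and 704.0 in WT fluoxetine males. The groups did not overlap, at a log2 difference of 0.36 ± 0.07 (SE; adjusted p = 0.00802, limma). How many of all genes had groups apart in this comparison of males is not reported here. Ndufb2 had 1036, 970.3, 993.4, 993.6 and 916.9 in HT fluoxetine males, against 850.8, 840.5, 836.3, 881.7 and 867.9 in WT fluoxetine males. Again all HT males were above all WT males, at 0.20 ± 0.04 (adjusted p = 0.00919).

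Ndufab1 had 1576, 1781, 1667, 1717 and 1586 normalised counts in HT fluoxetine males, against 1429, 1367, 1379, 1461 and 1393 in WT fluoxetine males. The groups were apart, at 0.24 ± 0.06 (SE; adjusted p = 0.0154, limma). Ndufaf6 had 107.4, 115.7, 107.6, 117.9 and 116.0 in HT fluoxetine males, against 99.61, 85.79, 97.24, 76.85 and 74.85 in WT fluoxetine males. It too was apart, at 0.38 ± 0.10 (adjusted p = 0.0321). Ndufa4 rose by 0.17 (adjusted p = 0.0253) and Ndufb9 by 0.23 (adjusted p = 0.0264), each with overlapping groups.

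The male difference went with transcript length: Spearman's rho with length was -0.57 over the 47 genes and -0.10 over all genes. After removal of the GC and length trend 4 genes were higher (Ndufa6, Ndufb4c, Ndufb8 and Ndufb9) and none lower, where 0.638% and 0.688% of all genes were called. The count was 2 without HT fluoxetine male replicate 2, 3 without replicate 1 or replicate 4 of that group, and 3 without WT fluoxetine male replicate 5. It was also 2 when only these groups were fitted.

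Lithium was also set against fluoxetine. In WT 34 genes were higher with lithium and 5 lower, where 26.9% of all tested genes were higher and 26.4% lower. Ndufa2 was higher by 0.61, Ndufa4 by 0.54, Ndufb4 by 0.51, Ndufa3 by 0.46, Ndufb6 by 0.45 and Ndufb9 by 0.44. On the other side Ndufs7 fell by 0.35, Ndufb10 by 0.30, Ndufa10 by 0.22, Ndufs8 by 0.18 and Ndufv1 by 0.15. With the GC trend alone removed Ndufs8 differed by 0.031 and Ndufv1 by 0.032, neither of them called. With the GC and length trend removed 21 were higher and 8 lower, where 14.1% and 15.4% of all genes were. In HT males 27 were higher and 3 lower, where 14.7% and 16.8% of all tested genes were, and after the removal 6 were higher and 5 lower, where 3.28% and 4.72% of all genes were. Ndufb10 had 1657, 1946, 1855, 2202 and 1861 normalised counts in HT lithium males, against 2207, 2576, 2286, 2472 and 2310 in HT fluoxetine males. The groups did not overlap, at a log2 difference of -0.32 ± 0.07 (SE; adjusted p = 2.47e-04, limma), and the share of all genes with groups apart is not reported here. Ndufa4 was higher by 0.38 (adjusted p = 1.96e-09), Ndufa2 by 0.38, Ndufa3 by 0.35, Ndufc2 by 0.33, Ndufaf4 by 0.31 and Ndufc1 by 0.30. Ndufa10 fell by 0.22 and Ndufs7 by 0.21 (adjusted p = 0.0449). With the GC and length trend removed Ndufa4 differed by -0.009, and with the GC trend alone removed Ndufs7 differed by 0.021, neither of them called. These comparisons use the same lithium libraries as those against vehicle.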

How the data were processed

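Poly(A) RNA of prefrontal cortex was sequenced from a stranded library kit, per the labels' protocols. The authors deposited 1 table of normalised signal, gene counts divided by 1 size factor per library. Per the submitters' processing notes, Salmon 0.11.2, R 3.6.0, DESeq2 1.19.11 and GRCm38 were used, without their roles. Size factors recovered from the steps between values were 0.827 to 1.129. Values up to 1000 reads were whole within 0.01 read (100%). Of 18088 table genes 18077 had a symbol, and 0 sample columns were left unused.

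The test was limma 3.58.1 in R 4.3.3 with an intensity trend, on log2 of the deposited value + 1, for genes of at least 10 in at least 4 of 59 libraries. It had 12 group means, 47 residual degrees of freedom and a two-sided Benjamini-Hochberg threshold of 0.05 over 17891 genes. Fold changes are on that log2 scale, which understates those of low genes. edgeR 4.0.16 and DESeq2 1.42.0 were run on the recovered reads. For each gene 1 GENCODE M21 transcript gave GC content and length, and the trend removal used a spline of 5 degrees of freedom on each. Copies were compared with edlib 1.3.9.post1 in Python 3.11.15, and figures were drawn with matplotlib 3.10.9.

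In each comparison the text names the 6 called genes with the largest rise and the 6 with the largest fall, or the 3 smallest p-values where fewer than 3 were called, and besides these core subunits, assembly factors and some examples by role. Not every gene of the lists is reported here by name. The genes, lists and tests were chosen with earlier results of these data known. The limma fit was tested on simulated counts with known changes. For the trend removal the check was only that a GC trend added to those counts was taken out. Neither a length trend nor the recovery of known changes after the removal was tested. Alternatives were other constants, filters, centrings, tools, blocks, trend removals, and fits without single libraries or the HT fluoxetine females.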

Additional observations from a re-analysis of the deposited data

Results flagged for a closer look

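Single libraries lay far from the others of their group in 8 of 132 groups examined, taken over 10 genes and the list median. Chance flags about 1 in 20 groups. Ndufa2 was at 1039 normalised counts in 1 HT fluoxetine male, with the others at 899.1 to 919.1. Ndufa4 was at 3527 in 1 HT vehicle female, with the others at 3814 to 3849. Ndufb2 was at 1322 in 1 WT lithium male, with the others at 1123 to 1167, and Ndufc1 was at 841.9 in 1 WT lithium male, with the others at 707.2 to 739.6. Ndufs7 was at 1270 in 1 HT fluoxetine female, 981.3 in 1 WT lithium female and 1172 in 1 WT vehicle female. The median deviation of the list was -0.0375 in 1 HT lithium female, with the others at 0.0863 to 0.125.

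The response to fluoxetine differed between HT and WT for 25 genes by the interaction test (limma). It was positive for 20 and negative for 5, where 8.97% and 11.7% of all tested genes were called. With the GC and length trend removed the counts were 3 and 1, where 0.548% and 0.856% of all genes were called. The log2 difference between the responses was 0.37 for Ndufb4c, 0.34 for Ndufb4, 0.28 for Ndufb2, 0.27 for Ndufa4, 0.27 for Ndufa2 and 0.22 for Ndufaf2. It was -0.32 for Ndufs7, -0.28 for Ndufa8, -0.24 for Ndufv1, -0.21 for Ndufs8 and -0.19 for Ndufb10. Among males alone 0 genes differed (0% of all tested genes, limma), with 1 at an unadjusted p below 0.05, and edgeR and DESeq2 called 0.

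Between HT females and HT males the response to fluoxetine differed for 23 genes by the interaction test (limma). The female response was above for 21 and below for 2, where 6.59% and 8.59% of all tested genes were called. The log2 difference was 0.46 for Ndufa3, 0.41 for Ndufa1, 0.39 for Ndufa4, 0.36 for Ndufa5, 0.35 for Ndufaf3 and 0.34 for Ndufs6. It was -0.35 for Ndufs7 and -0.28 for Ndufb10. With the GC and length trend removed Ndufa4 differed by -0.049 and Ndufa1 by -0.050. The HT fluoxetine females were among the 25 libraries whose median GC slope differed from that of the other 34, with overlapping ranges, and the part of that in these values was not tested beyond the removal of the trend.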

How the results depend on the processing

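Removing the GC and length trend moved the number of called complex I genes from 34 to 15 for HT against WT under fluoxetine and from 39 to 24 for lithium in HT. Over all genes the calls became fewer too, from 15.6% higher and 17.8% lower to 4.94% and 6.89%, and from 25.7% and 24.9% to 11.7% and 16.4%. The removal left 17 for fluoxetine in HT, 16 in HT females, 11 for lithium against fluoxetine in HT males, 4 for the genotype by fluoxetine and 3 for the sex by fluoxetine interaction. In these comparisons 4.8%, 6.36%, 3.28%, 0.548% and 0.274% of all genes were then higher, and 5.03%, 6.9%, 4.72%, 0.856% and 0.52% lower. The list medians became 0.031, 0.014, 0.062, 0.071, 0.020, 0.028 and 0.001 in the order in which all these comparisons are named. They became 0.112 for lithium in WT and 0.069 for lithium against fluoxetine in WT. Ndufa4 turned to -0.028 for lithium in HT, -0.007 for fluoxetine in HT females, -0.009 for lithium against fluoxetine in HT males and -0.049 for the sex interaction, where Ndufa1 turned to -0.050.

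With the GC trend alone removed the counts were 1 for HT against WT under lithium, 1 for fluoxetine in HT males, 10 for the genotype by fluoxetine and 12 for the sex interaction. Ndufs8 turned to 0.006 for HT against WT under fluoxetine, 0.002 for lithium in HT and 0.031 for lithium against fluoxetine in WT, where Ndufv1 turned to 0.032. Ndufs7 turned to 0.021 for lithium against fluoxetine in HT males. With the length trend alone removed the counts were 2 for HT against WT fluoxetine males and 13 for the sex interaction. The medians were then 0.152 for lithium in WT, 0.092 for lithium in HT, 0.086 for fluoxetine in HT, 0.133 in HT females, 0.139 and 0.038 for lithium against fluoxetine in WT and in HT males, and 0.058 for the sex interaction. The removals of a single trend were chosen after seeing the data, and the cause of each shift was not tested.

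Without the HT fluoxetine females the counts were 6 for HT against WT under fluoxetine, 0 for fluoxetine in HT (8 at an unadjusted p below 0.05 by limma) and 0 for the genotype by fluoxetine interaction (1 at an unadjusted p below 0.05). The medians of these last comparisons were 0.049 and 0.017, and for HT against WT Ndufb10 turned to 0.145, Ndufs7 to 0.018 and Ndufv3 to 0.005. HT against WT under lithium, with 0 called, gave 4 under DESeq2, 3 under edgeR, under median centring and with a mean of at least 100, and 0 to 3 when single libraries were left out. Fluoxetine in HT males, also 0, gave 1 under DESeq2, median centring, a mean of at least 100 and no intensity trend, and 0 to 2 when single libraries were left out. HT against WT fluoxetine males gave 2 when only these groups were fitted and 2 to 8 when single libraries were left out. The sex interaction gave 14 to 25 when single libraries were left out.

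With the replicate number as a block the counts were 2 for HT against WT under lithium, also with the library numbers as the block, and 1 for fluoxetine in HT males. The numbers did not pair the samples: the mean correlation of residuals was 0.0104 over 319 pairs of the same number (-0.316 to 0.360) and -0.0026 over other pairs.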
